A study of Mus musculus with 6 samples.

Results

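The loci of 4 regulators of other blood lineages, Pax5, Ebf1, Cebpa and Spi1, were examined in γδ T cell precursors for 2 histone marks and for the transcription factor SOX13. Members were all deposited peaks that touched 1 of 4 fixed windows on the mouse build mm9: chr4:44530000-44740000 for Pax5, chr11:44420000-44840000 for Ebf1, chr7:35890000-35930000 for Cebpa and chr2:90920000-90980000 for Spi1. The windows took in 46 of the 74959 peaks in the 5 lists: 21 at Pax5, 19 at Ebf1, 6 at Cebpa and 0 at Spi1. The rule uses position alone and no score or overlap of a peak.

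All cells were CD24-positive γδ thymocytes from C57BL/6 mice with the genotype TCRbeta KO.Sox13 ECFP KI/+, so every group lacked the TCRβ gene and had a knocked-in reporter for cyan fluorescent protein (CFP) on 1 Sox13 allele. Sorting on CFP gave a Sox13hi population (CFP high) and a Sox13lo population (CFP low or negative). Chromatin immunoprecipitation and sequencing (ChIP-seq) was done for SOX13 in Sox13hi cells and for histone H3 trimethylated at lysine 4 (H3K4me3) or at lysine 27 (H3K27me3) in each population, with 1 library per group. The sources used here do not give ages, the number of animals or whether animals were pooled, and no replicate stands behind any difference.

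Pax5 is the transcription factor that commits lymphoid progenitors to the B cell lineage, and Ebf1 acts upstream of it and activates early B cell genes. Cebpa encodes a leucine zipper factor needed for granulocyte and monocyte precursors. Spi1 encodes PU.1, an ETS factor that drives myeloid and B cell fates and is also expressed in the earliest thymic progenitors before it is shut off at T cell commitment. H3K4me3 is found at active and poised promoters, and H3K27me3 is laid down by Polycomb repressive complex 2 at silent genes. Promoters of developmental regulators rich in CpG dinucleotides often carry both marks when the gene is off, a state called bivalent.

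Of the 4 genes, 3 have a promoter in the RefSeq table used here, and Spi1 has none. The 250 bases before each annotated start are shown because their CpG content is a feature the windows did not use. They come from RefSeq on GRCm38.p6, a different build from that of the peaks, so no peak was placed on them. Each reads 5′ to 3′ along the gene, with CpG dinucleotides in capitals. The Cebpa promoter is chr7:35119043-35119292 on the plus strand, the Pax5 promoter chr4:44710695-44710944 on the minus strand, and the starts listed for Ebf1 are preceded by chr11:44617850-44618099 and chr11:44619978-44620227 on the plus strand.
Cebpa: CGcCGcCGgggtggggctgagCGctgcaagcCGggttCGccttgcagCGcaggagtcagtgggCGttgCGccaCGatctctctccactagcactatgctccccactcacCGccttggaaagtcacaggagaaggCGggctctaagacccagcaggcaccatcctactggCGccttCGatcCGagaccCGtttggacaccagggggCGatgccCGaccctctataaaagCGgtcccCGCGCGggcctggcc
Pax5: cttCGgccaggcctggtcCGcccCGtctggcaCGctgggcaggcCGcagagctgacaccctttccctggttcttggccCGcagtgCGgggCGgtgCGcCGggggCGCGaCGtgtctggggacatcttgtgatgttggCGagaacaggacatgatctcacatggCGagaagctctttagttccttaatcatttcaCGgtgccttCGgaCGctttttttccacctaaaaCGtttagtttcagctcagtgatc
Ebf1, first start: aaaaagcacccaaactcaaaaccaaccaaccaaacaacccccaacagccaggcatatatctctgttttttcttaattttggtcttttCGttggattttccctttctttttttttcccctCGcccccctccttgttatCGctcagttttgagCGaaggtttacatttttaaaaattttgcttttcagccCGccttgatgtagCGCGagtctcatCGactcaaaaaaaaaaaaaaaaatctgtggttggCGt
Ebf1, second start: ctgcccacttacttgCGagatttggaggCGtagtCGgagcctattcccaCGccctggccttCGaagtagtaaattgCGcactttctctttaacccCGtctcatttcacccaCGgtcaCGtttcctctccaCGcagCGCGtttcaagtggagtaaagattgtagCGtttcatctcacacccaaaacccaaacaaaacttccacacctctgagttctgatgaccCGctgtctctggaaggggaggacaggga
The Cebpa stretch holds 22 CpG dinucleotides, and 14.8% of the 32841 promoters in the table hold at least as many. Pax5 holds 19, reached by 19.7% of promoters. The Ebf1 starts hold 9 and 14, reached by 40.3% and 29.4%. The median over all promoters is 6, so all 4 sequences lie above it. The letters TATAAA, read on the gene's strand, occur in the Cebpa stretch alone among the 4, beginning 30 bases before the start, and in 7.59% of all promoters.

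H3K27me3 was the commonest mark at these loci. It had 20 peaks in Sox13hi and 11 in Sox13lo, against 8 and 5 for H3K4me3 and 2 for SOX13. Pax5 and Ebf1 each held 9 H3K27me3 peaks in Sox13hi and 5 in Sox13lo, Cebpa held 2 and 1, and Spi1 held none. H3K4me3 gave 3 and 3 peaks at Pax5, 3 and 1 at Ebf1, 2 and 1 at Cebpa and none at Spi1, Sox13hi first. The 3 windows with peaks thus had both marks in both populations. For comparison, each chromosome was divided into stretches as long as a window. A peak in all 4 histone lists was found in 18.5% of stretches of the Pax5 length, 33% of the Ebf1 length and 3.35% of the Cebpa length. RNA was not measured in these libraries, so whether the genes were silent was not tested.

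**Figure D1:**
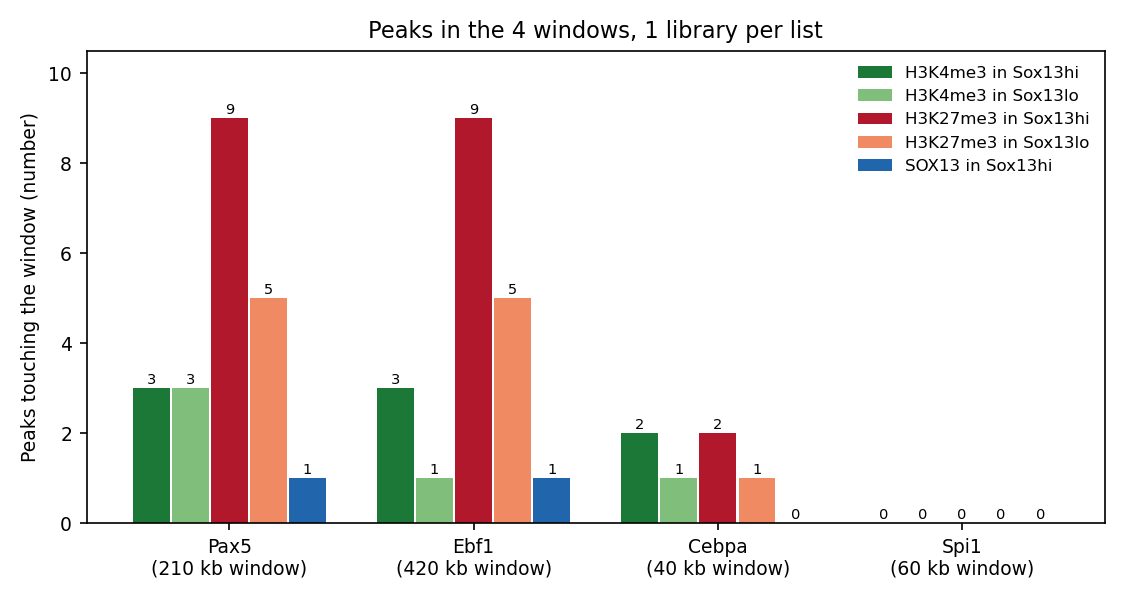
Number of peaks (vertical axis) that touched each of the 4 windows, with 1 bar for each of the 5 peak lists and the number above it. The H3K27me3 bars reach 9 in Sox13hi and 5 in Sox13lo at both Pax5 and Ebf1, and Spi1 has 0 in every list.

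The same stretches give a background for the number of peaks. At least 9 Sox13hi H3K27me3 peaks were found in 1.71% of the 12564 stretches as long as the Pax5 window, and at least 5 Sox13lo peaks in 2.95%. For the longer Ebf1 window the same numbers were reached in 5.31% and 7.28% of 6276 stretches. Among 66008 stretches as long as the Cebpa window, 3.93% held at least 2 Sox13hi H3K27me3 peaks and 6.56% at least 1 Sox13lo peak. The H3K4me3 counts of the 2 larger windows were reached more often than their H3K27me3 counts. For Pax5, 23.5% of stretches reached the 3 Sox13hi peaks and 20.9% the 3 of Sox13lo. For Ebf1, 41.8% reached the 3 of Sox13hi and 65.1% the 1 of Sox13lo. In the short Cebpa window the 2 Sox13hi H3K4me3 peaks were reached in 6.32% and the 1 of Sox13lo in 19.7% of stretches. Per megabase, the 4 windows together held 27.4 Sox13hi H3K27me3 peaks against 5.62 over the whole list, and 15.1 against 2.80 in Sox13lo. For H3K4me3 the values were 10.96 against 7.74 in Sox13hi and 6.85 against 6.99 in Sox13lo. Stretches without genes are included in these shares.

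Each peak has a score given by the authors, whose definition the sources used here do not give, so it was read only as a rank within its own list. H3K27me3 peaks of the windows lay mostly in the upper part of their lists. In Sox13hi, 13 of 20 had at least 50% of the list below them (49.9% of all peaks do), and in Sox13lo 10 of 11 did (49.8%). H3K4me3 peaks lay lower, with 2 of 8 in the upper part in Sox13hi (50%) and 1 of 5 in Sox13lo (50%). The median window peak scored above 61.3% of the Sox13hi and 71.6% of the Sox13lo H3K27me3 list, and above 37.1% and 38.4% of the H3K4me3 lists. The 10% of the list with the highest scores held 4 of the 20 Sox13hi H3K27me3 peaks (9.96% of all peaks) and 2 of the 11 Sox13lo peaks (9.99%). It held 0 of the 8 Sox13hi H3K4me3 peaks (10%) and 1 of the 5 Sox13lo peaks (9.96%), the one at Cebpa.

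**Figure D2:**
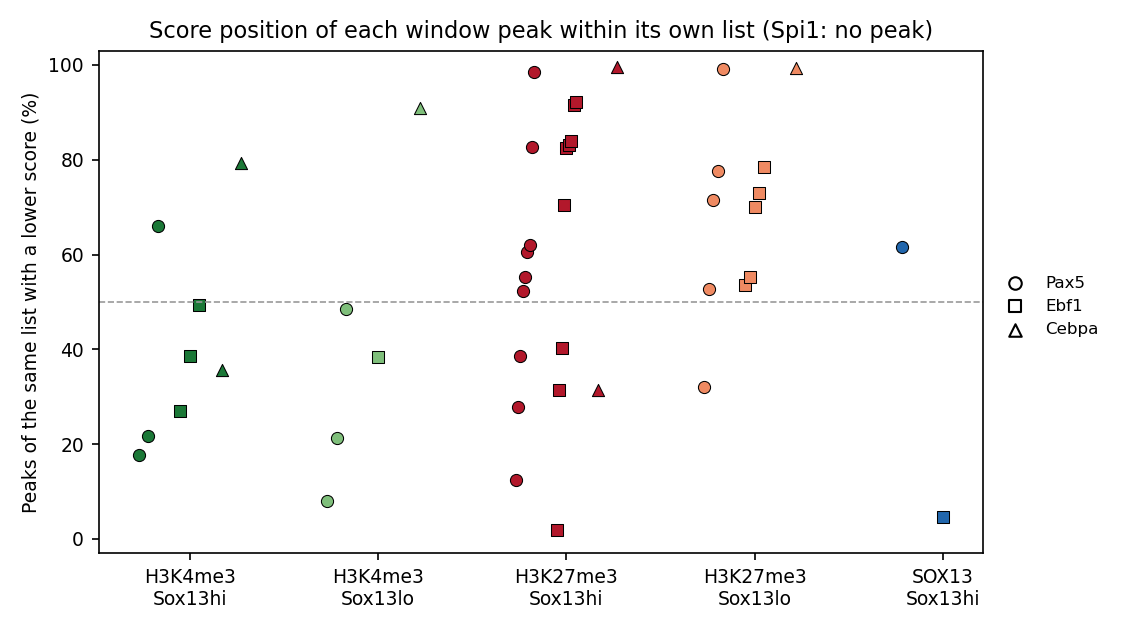
Share of the same list with a lower score (vertical axis, percent) for each peak in the windows, by list (horizontal axis) and gene (symbol), with a dashed line at 50%. The highest H3K27me3 peaks of Cebpa and Pax5 lie above 98.6% or more of their lists in both populations, and 3 of the 13 H3K4me3 peaks lie above the dashed line.

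Cebpa showed the plainest pattern, with both marks stacked on 1 region of 3050 bp, at chr7:35902801-35905849. In Sox13hi, H3K27me3 covered chr7:35904101-35905449 with a score of 210.25, rank 57 of 14842. In Sox13lo, it covered chr7:35903751-35905849 with a score of 212.5, rank 43 of 7395. These peaks scored above 99.6% and 99.4% of their lists. A second Sox13hi peak of 200 bp at chr7:35903701-35903899 (score 9.75, rank 10042) lay within the span of the Sox13lo peak for 150 bp, so the Sox13lo list had 1 wide peak where the Sox13hi list had 2.

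H3K4me3 at Cebpa was split in the same way. In Sox13hi, it had a peak of 1900 bp at chr7:35903551-35905449 (score 93.25, rank 4190 of 20444) and one of 550 bp at chr7:35902801-35903349 (score 19, rank 13091). In Sox13lo, a single peak of 2600 bp at chr7:35902901-35905499 had a score of 183.5, rank 1677 of 18471. With peaks within 1 kb merged, each mark had 1 peak at Cebpa in each population, so the difference in number did not remain. The larger Sox13hi H3K27me3 peak lay wholly within H3K4me3 and shared 1350 bp with it. In Sox13lo, 1750 bp were shared, which is 83.3% of the H3K27me3 and 67.3% of the H3K4me3 peak. No SOX13 peak touched the window, where 17.4% of stretches of that length hold at least 1, and the nearest lay 8.50 kb outside it (chr7:35881251-35881499, score 6.5).

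At Pax5 the marks met at a main site near the higher-numbered end of the window. H3K27me3 covered chr4:44716501-44717799 in Sox13hi (score 148, rank 209 of 14842) and chr4:44716001-44717699 in Sox13lo (score 189, rank 59 of 7395), with 1200 bp in common. H3K4me3 covered chr4:44716201-44717649 in Sox13hi (score 62.25, rank 6932 of 20444) and chr4:44716701-44717649 in Sox13lo (score 54.25, rank 9478 of 18471). The repressive mark thus stood above 98.6% and 99.2% of its lists and the active mark above 65.98% and 48.6%. The marks shared 1150 bp in Sox13hi and 950 bp in Sox13lo, where the H3K4me3 peak lay wholly within H3K27me3.

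Together with its flanks, the main Pax5 site formed a cluster of 14450 bp, from 44713101 to 44727549, with 6 H3K27me3 peaks in Sox13hi and 4 in Sox13lo, the main peak of each included. On the higher-numbered side, the Sox13lo peaks at chr4:44724051-44724999 (score 49.5, rank 1641) and chr4:44726851-44727299 (score 41.5, rank 2093) each overlapped a narrower Sox13hi peak, of 400 and 200 bp. The 400 bp peak lay wholly within the Sox13lo peak, whereas the 200 bp peak shared only 50 bp. Those Sox13hi peaks ranked 5547 and 8975 in the longer list. A further Sox13hi peak on that side, chr4:44727401-44727549 (score 9, rank 10477), overlapped no Sox13lo H3K27me3 peak and lay 100 bp from the nearest. On the other side, peaks of the populations lay side by side without overlap: chr4:44713101-44713399 (score 15.5) and chr4:44714001-44714249 (score 16.5) in Sox13hi, and chr4:44714801-44715299 (score 25) in Sox13lo. None of these flanking peaks carried H3K4me3.

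A second Pax5 site differed between the lists. H3K4me3 was called in both populations, at chr4:44676951-44677299 in Sox13hi (score 11.25, rank 15871) and chr4:44676801-44677149 in Sox13lo (score 16.5, rank 14490). The Sox13hi list also had H3K27me3 there, at chr4:44676951-44677349 (score 39.5, rank 2563), which covered the whole of the H3K4me3 peak. The Sox13lo list had none at that place, and its nearest H3K27me3 peak began 1200 bp away, at chr4:44678551-44678749 (score 14, rank 4971). Sox13hi had a weaker peak beside that one, at chr4:44678901-44679049 (score 5.75, rank 12846). Regions with both marks in Sox13hi and H3K4me3 alone in Sox13lo make up 1.53% of the 37939 regions obtained by merging the overlapping histone peaks of all 4 lists.

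The other Pax5 peaks stood alone. Sox13hi had H3K27me3 at chr4:44571451-44571699 (score 18.75, rank 5793) and H3K4me3 at chr4:44640401-44640799 (score 10, rank 16618). Sox13lo had H3K4me3 at chr4:44653251-44653399 (score 8.75, rank 16918). Both of these H3K4me3 peaks scored low in their lists, above 17.8% and 7.93% of peaks, and the nearest H3K4me3 peak of the other population was 12450 bp away in each case.

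**Figure D3:**
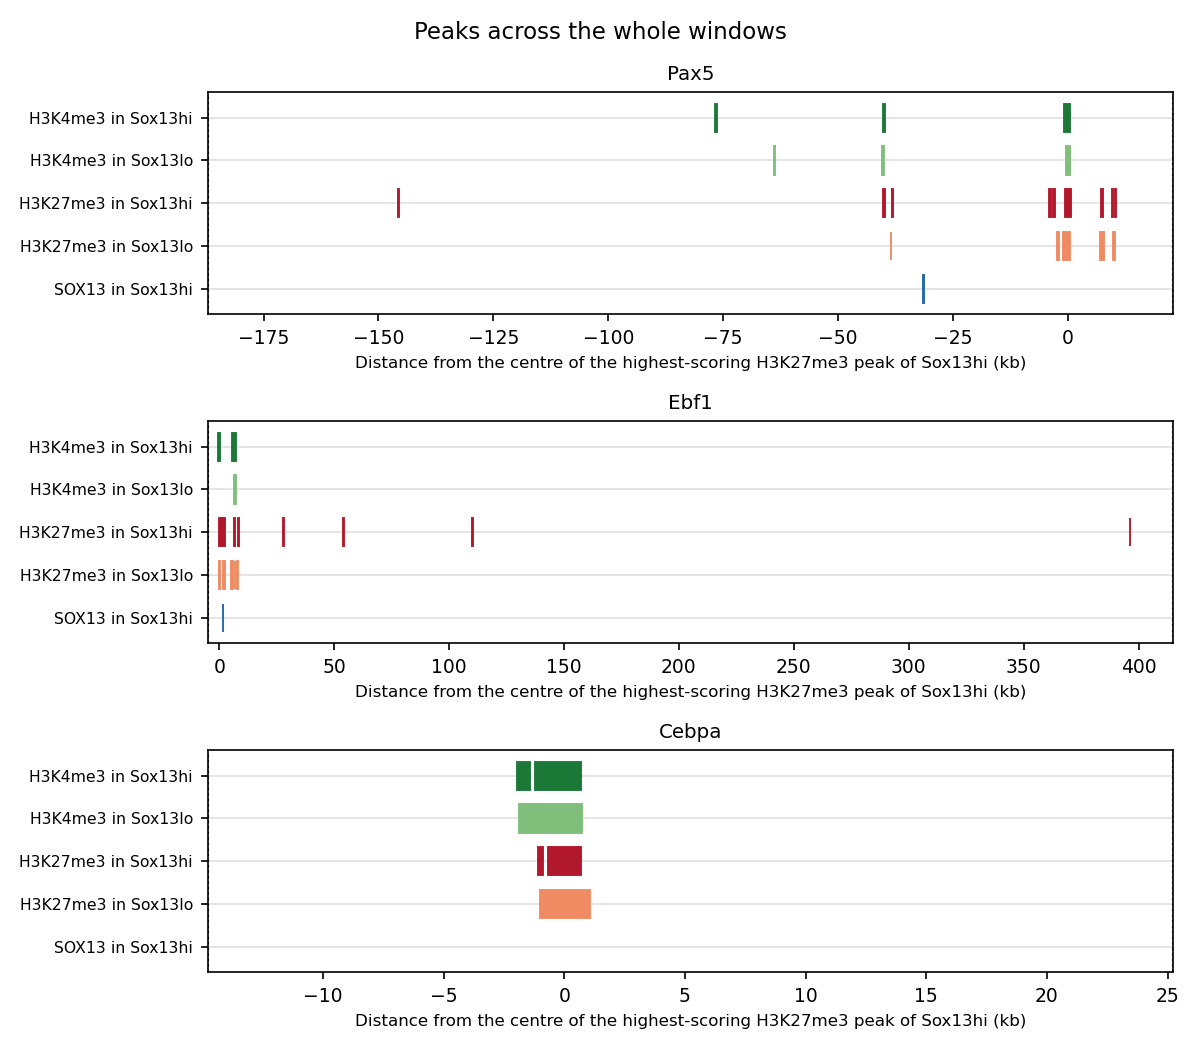
Peaks of the 5 lists (rows) across the whole Pax5, Ebf1 and Cebpa windows, by distance in kb from the centre of the highest-scoring Sox13hi H3K27me3 peak (horizontal axis), with outlines that make narrow peaks look slightly wider. At Ebf1 the peaks crowd at 1 end and 4 single Sox13hi H3K27me3 peaks follow, and the Cebpa peaks form 1 block.

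Ebf1 carried H3K27me3 as a series of peaks from 44424701 to 44433499 on chromosome 11, with 5 peaks in each population. The highest-scoring Sox13hi peak was chr11:44424701-44425349 (score 67.25, rank 1154 of 14842), followed by chr11:44426701-44427649 (score 64, rank 1250). In Sox13lo the order was reversed, with chr11:44426651-44427599 (score 51, rank 1576 of 7395) ahead of chr11:44424751-44425299 (score 43.25, rank 1987). The highest-scoring peaks ranked further from the top than those of Cebpa and Pax5. No Sox13lo peak of Ebf1 was among the top 10% of its list. In Sox13hi, 2 Ebf1 peaks were, against 1 each at Pax5 and Cebpa. The median Ebf1 peak scored above 82.6% of the Sox13hi list, against 55.2% at Pax5 and 65.5% at Cebpa. In Sox13lo the medians were 70.0% at Ebf1, 71.6% at Pax5 and 99.4% at Cebpa. A Sox13hi peak between the 2 highest-scoring Ebf1 sites, chr11:44425851-44426549 (score 42, rank 2359), had no counterpart and ended 100 bp short of a Sox13lo peak.

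Both marks met in both populations at 1 Ebf1 site, chr11:44431551-44432249. H3K4me3 had a score of 34.25 there in Sox13hi (rank 10331 of 20444) and 35.25 in Sox13lo (rank 11349 of 18471). H3K27me3 lay within the H3K4me3 peak in each population, over 500 bp in Sox13hi (score 40.5, rank 2485) and 250 bp in Sox13lo (score 26.5, rank 3291). The active mark was thus near or below the middle of its lists, above 49.3% and 38.4% of peaks, and the repressive mark above 83.1% and 55.2%.

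At other Ebf1 sites the lists disagreed about H3K4me3. At chr11:44424601-44425299 the active mark was called in Sox13hi (score 21.5, rank 12497) on top of H3K27me3, with 600 bp shared, and the Sox13lo list had H3K27me3 alone. Regions of that kind are 0.746% of all merged regions. At chr11:44430451-44430899 Sox13hi had H3K4me3 (score 13.5, rank 14849) and no H3K27me3 peak, while Sox13lo had H3K27me3 at chr11:44430301-44430899 (score 39.75, rank 2205) and no H3K4me3 peak. The Sox13lo peak covered the whole 450 bp of the Sox13hi one. This pattern, H3K4me3 alone in Sox13hi and H3K27me3 alone in Sox13lo, is found in 0.448% of merged regions. In each population the mark that was missing at this place had a peak 650 bp away.

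On the far side of the marked site, Sox13lo had chr11:44432801-44433249 (score 25.5) and Sox13hi chr11:44433301-44433499 (score 9.75), 50 bp apart. Beyond this cluster, Sox13hi alone had 4 single H3K27me3 peaks across the rest of the window. They were chr11:44452751-44453049 (score 24.75, rank 4329), chr11:44478701-44479199 (score 39.25, rank 2572), chr11:44535151-44535249 (score 3, rank 14446) and chr11:44821201-44821499 (score 12, rank 8668). The nearest Sox13lo H3K27me3 peak was between 19500 and 387950 bp away from them. The second of these scored above 82.6% of its list and was the highest-scoring H3K27me3 peak of the windows with no Sox13lo peak within 2 kb.

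**Figure D4:**
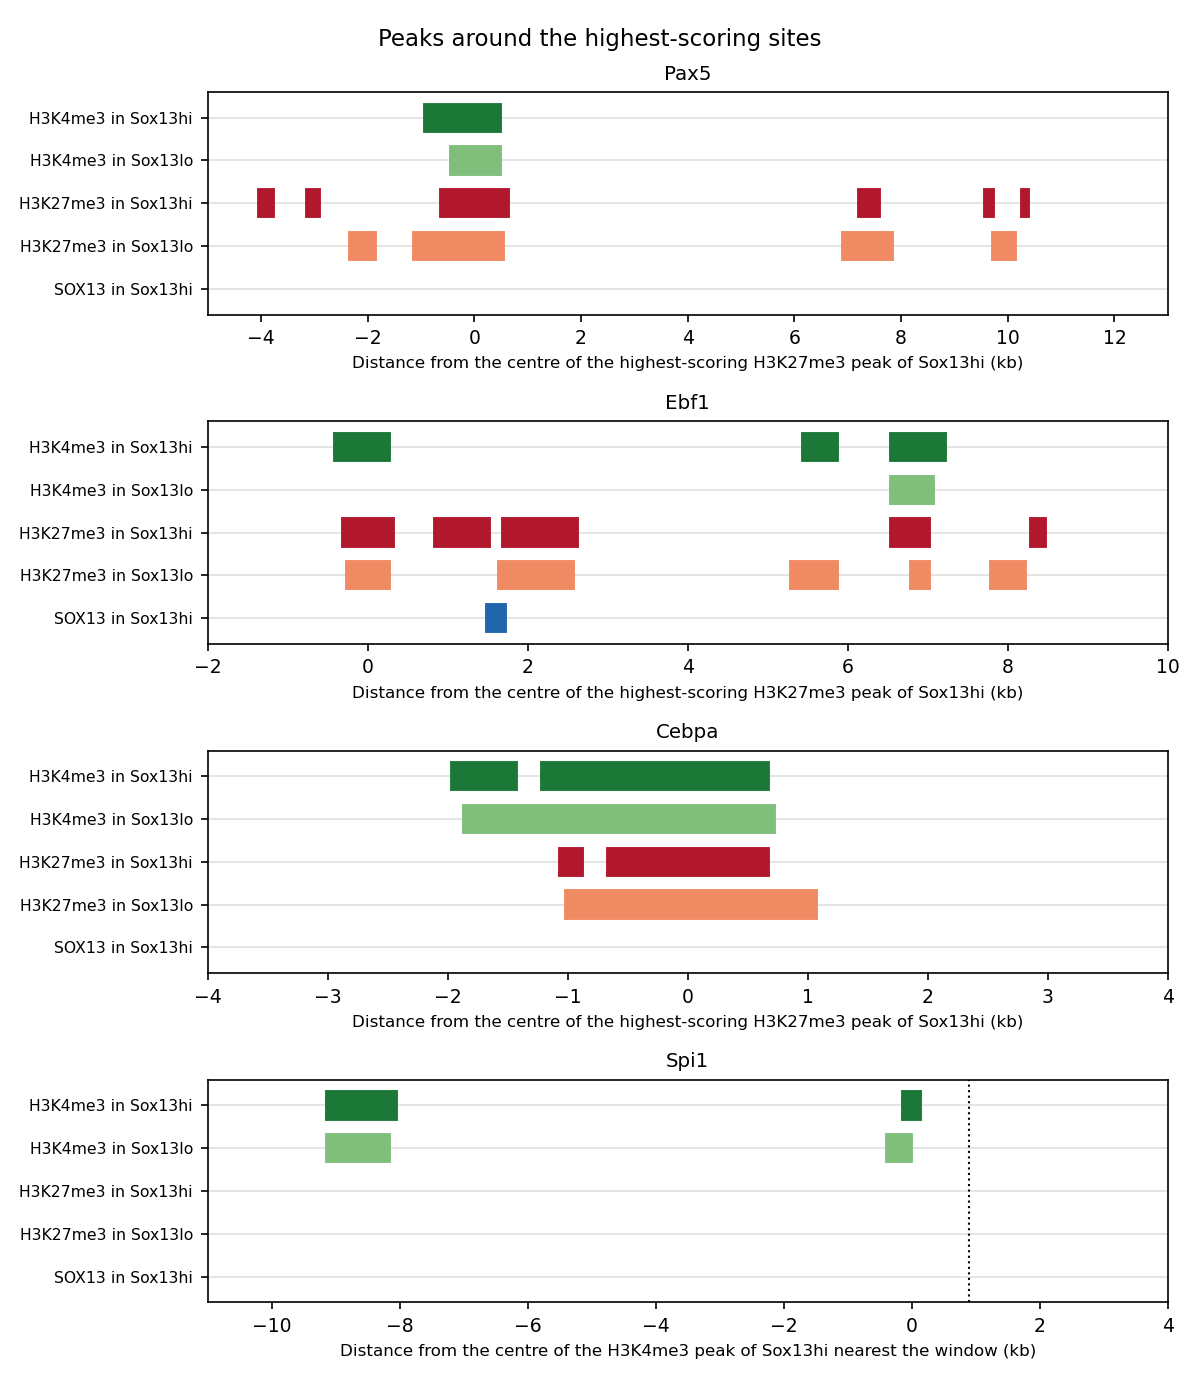
Peaks of the 5 lists (rows) around the highest-scoring Sox13hi H3K27me3 peak of Pax5, Ebf1 and Cebpa, and around the Sox13hi H3K4me3 peak nearest the Spi1 window, whose edge is the dotted line, by distance in kb (horizontal axis). H3K4me3 and H3K27me3 bars of both populations lie above each other at Pax5, Cebpa and 1 Ebf1 site, and the Spi1 panel shows H3K4me3 alone, outside the window.

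The Spi1 window held no peak of either mark in either population and no SOX13 peak, whereas the other 3 windows held peaks of both marks. Of the 44000 stretches as long as the Spi1 window, 48.8% held no peak in any list. These include stretches without genes, so the share does not show how often a stretch with a gene is empty. Of all 44000, 29% held at least 1 H3K4me3 peak in Sox13hi and 26.1% in Sox13lo. At least 1 H3K27me3 peak was found in 20.3% and 9.2%, and at least 1 SOX13 peak in 24.3%. A list shows only peaks past the authors' threshold, so signal below it would not be seen. The edge of the window mattered here. Just outside it, H3K4me3 was called at chr2:90918951-90919249 in Sox13hi (score 9, rank 17305 of 20444) and chr2:90918701-90919099 in Sox13lo (score 13.25, rank 15378 of 18471), 749 and 899 bp from the edge. A stronger pair lay further out, at chr2:90909951-90911049 in Sox13hi (score 52, rank 8073) and chr2:90909951-90910949 in Sox13lo (score 86.5, rank 6785). The RefSeq table on GRCm38 lists Slc39a13 and Mybpc3 as the protein-coding neighbours of Spi1, and which gene these peaks belong to was not analysed here. The nearest H3K27me3 peaks were 55 kb beyond the window in Sox13hi and 113 kb in Sox13lo. The nearest SOX13 peak was 17.0 kb away.

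Counted over the 4 windows, most H3K4me3 peaks lay on H3K27me3, whereas most H3K27me3 peaks had no H3K4me3. Of the Sox13hi H3K4me3 peaks, 5 of 8 overlapped H3K27me3 (62.5%, 95% exact binomial interval 24.5 to 91.5%), against 14.4% of the whole list. In Sox13lo 3 of 5 did (60%, 14.7 to 94.7%), against 14.2%. Of the H3K27me3 peaks, 6 of 20 overlapped H3K4me3 in Sox13hi (30%, 11.9 to 54.3%), against 22.1% of the list, and 3 of 11 in Sox13lo (27.3%, 6.02 to 61.0%), against 38.6%. The H3K27me3 shares are near those of the lists. These intervals treat neighbouring peaks of 1 locus as independent and cover counting error only. As both marks were measured in bulk cells, overlap does not show that they lay on the same chromosomes.

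Of the 25 merged regions in the windows, 3 carried both marks in both populations, 1 each at Pax5, Ebf1 and Cebpa, which is a state of 4.87% of all regions. H3K27me3 alone in Sox13hi, with no peak in Sox13lo, was the commonest state with 11 regions (26.2% of all regions). H3K27me3 alone in Sox13lo, with no peak in Sox13hi, was found in 3 (7.47%), and H3K27me3 alone in both in 3 (2.58%). No region carried H3K4me3 alone in both populations, which is the state of 29.6% of all regions.

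The populations differed in number of H3K27me3 peaks at these loci about as much as over the whole lists, which hold 14842 and 7395 peaks. With both lists limited to their 7395 highest-scoring peaks, 13 Sox13hi and 11 Sox13lo peaks remained in the windows, 6 and 5 at Pax5, 6 and 5 at Ebf1 and 1 each at Cebpa. As deposited, 8 of the 20 Sox13hi peaks overlapped a Sox13lo peak (40%, 19.1 to 63.9%), against 24.5% of the list. From the other side 7 of 11 did (63.6%, 30.8 to 89.1%), against 49.1%. The 12 Sox13hi peaks without a match fell into 2 kinds: 7 lay 50 to 1400 bp from a Sox13lo peak and 5 lay 19500 bp or more away. All 4 unmatched Sox13lo peaks lay within 650 bp of a Sox13hi peak. Over the whole lists, 18.3% of unmatched Sox13hi and 39.9% of unmatched Sox13lo H3K27me3 peaks have a peak of the other population within 2 kb.

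For H3K4me3, 5 of the 8 Sox13hi peaks overlapped a Sox13lo peak (62.5%, 24.5 to 91.5%), against 69.7% of the list, and 4 of the 5 Sox13lo peaks overlapped a Sox13hi peak (80%, 28.4 to 99.5%), against 78.1%. These shares are near the background. The 3 unmatched Sox13hi peaks, 2 at Ebf1 and 1 at Pax5, scored above 17.8 to 38.6% of their list, and the unmatched Sox13lo peak, at Pax5, above 7.93%. Without replicates, such low-scoring calls cannot be told apart from differences between libraries.

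SOX13 had 2 peaks in the windows, mapped in Sox13hi cells. The one at Pax5, chr4:44685651-44685899 (score 8.5, rank 4882 of 13807), scored above 61.6% of the list and carried no histone mark, with the nearest H3K27me3 peak of Sox13hi 6600 bp and the nearest H3K4me3 peak 8350 bp away. The one at Ebf1, chr11:44426501-44426749 (score 5, rank 12810), scored above 4.63% of the list. It bridged the gap between 2 Sox13hi H3K27me3 peaks, with 50 bp on each, and shared 100 bp with a Sox13lo H3K27me3 peak. It touched no H3K4me3 peak. From the side of the marks, 2 of the 20 Sox13hi H3K27me3 peaks held SOX13, both through this 1 site (3.27% of the list), and 0 of the 8 H3K4me3 peaks did (9.29%). Over the whole list 3.7% of SOX13 peaks overlap Sox13hi H3K27me3 and 14.2% overlap H3K4me3. The windows held 2.74 SOX13 peaks per megabase against 5.23 over the whole list, and at least 1 SOX13 peak is found in 54.6% of stretches as long as the Pax5 window and in 73.6% of those as long as the Ebf1 window. None of the 3 regions with both marks in both populations held a SOX13 peak. The share of all such regions that hold one was not counted, so nothing is concluded from these 3.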

How the data were processed

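The authors deposited 1 peak list per ChIP library, 5 in all, with a position and a score for each peak. The input library was not analysed here. Positions refer to mm9, as named in the submitters' processing notes. The sources used here do not give the aligner, peak caller, thresholds, control or definition of the score, and the depth is unknown. Per the labels' protocols, 1000000 cells went into the SOX13 ChIP and 250000 into each histone ChIP, with 17 cycles of amplification.

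Peaks start on a 50 bp grid and end 1 bp short of it, so widths and overlaps count the last base, and starts are printed counting from 1 with ends as deposited. A peak belonged to a window if it touched it, and peaks overlapped if they shared at least 1 bp. Rank 1 is the highest score of a list. Overlapping histone peaks were merged into regions. Stretches were laid end to end from the start of each chromosome to its last peak. Intervals are exact (Clopper-Pearson) at 95%.

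With 1 library per group no test was possible and no p-value was computed. Highest-scoring peaks, SOX13 peaks, peaks with both marks and higher-scoring peaks of 1 population were to be named. The members and lists were chosen with earlier results of these data known. Positions relative to genes, other B cell and myeloid genes and T cell markers need mm9 gene positions and were not analysed here.

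Window counting was tested on simulated peaks, and overlap counts equalled those of bedtools 2.31.1 for 5 of 5 pairs of lists. Python 3.11.15, NumPy 2.4.6, pandas 2.3.3, SciPy 1.17.1 and matplotlib 3.10.9 were used.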

Additional observations from a re-analysis of the deposited data

How the results depend on the processing

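Of 66 recomputed counts over the 4 windows, 55 stayed within 1.5 times the reported count. The 11 others came from cutting the lists by score. With the top 50% of each list, 13 Sox13hi H3K27me3 peaks remained in the windows, 2 Sox13hi and 1 Sox13lo H3K4me3 peaks, and 1 SOX13 peak. The H3K4me3 peaks that then overlapped the other population were 1 in Sox13hi and 1 in Sox13lo, and 2 and 1 when matched against the full list, a setting chosen after seeing the data. H3K27me3 peaks overlapping H3K4me3 of the same population were 2 in Sox13hi and 1 in Sox13lo, because most H3K4me3 peaks of the windows were removed, and 5 and 3 against the full lists. At equal list length 13 Sox13hi H3K27me3 peaks remained. Windows widened by 10 kb took in 2 H3K4me3 peaks of each population at Spi1, and 1 Sox13lo H3K27me3 and 1 SOX13 peak at Cebpa. Merging peaks within 1 kb left 15 Sox13hi and 8 Sox13lo H3K27me3 peaks. The number of H3K4me3 peaks that overlapped H3K27me3 of the same population was not recomputed under these settings. No paired analysis was possible because every group consisted of a single library, so replicates could not be left out either.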
